A study of Mus musculus with 35 samples.

Results

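The 9 genes described here encode the epidermal growth factor receptor, a partner receptor and 7 ligands of that receptor family. They were chosen by symbol from the 36106 genes of the deposited count table: the receptors Egfr and Erbb3 and the ligands Epgn, Areg, Ereg, Hbegf, Tgfa, Btc and Nrg1. All 9 were found, and all 9 passed the filter on low counts in each comparison below.

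Skin RNA was sequenced in bulk, in 35 samples. The 19 mice were C57BL/6J females (an inbred strain) that were 10 weeks old at radiation. Sham mice had no radiation and gave 3 samples, for which the labels give no collection week. In the other mice the skin of the left flank received 25 Gy, at 3.6 Gy/min for 420 seconds, and was then shaved with an electric razor. Samples labelled radiated and samples labelled control were collected at weeks 1, 2, 3 and 4, with 4 of each kind a week, so that 9 groups resulted. Since 19 mice gave 35 samples, each mouse of a radiated week is treated here as the source of both samples that carry its number in that week. Where on the body control skin was taken is not stated, nor whether it was shaved.

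ErbB receptors are membrane tyrosine kinases that pair up when a ligand binds. Amphiregulin (Areg), epigen (Epgn) and transforming growth factor alpha (Tgfa) bind the epidermal growth factor receptor (Egfr). Betacellulin (Btc), epiregulin (Ereg) and heparin-binding EGF-like growth factor (Hbegf) bind Egfr and also ErbB4. Neuregulin 1 (Nrg1) binds ErbB3 and ErbB4, and ErbB3 (Erbb3) has a weak kinase of its own and signals through its partners. All these ligands are made as membrane proteins and most are released by cleavage at the cell surface. In skin the family drives keratinocyte growth and migration, and it is best known there for its part in wound closure and in the hair cycle.

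The samples held 17362853 to 28487885 counts each. Levels are given as CPM, the counts of a gene relative to the scaled library total, so they compare a gene between samples, not genes with each other. All 7 markers of basal and suprabasal epidermis were detected in all groups, with summed levels of 5290 to 23600 CPM per sample. In bulk skin, fewer cells of a type and less RNA per cell cannot be told apart. Differences were tested with edgeR's quasi-likelihood test across all genes, and a gene is said to rise or fall where its Benjamini-Hochberg adjusted p was under 0.05.

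Radiated skin differed from control skin of the same week in 0 of the 9 genes at week 1, 0 at week 2, 3 at week 3 and 7 at week 4. Over all genes tested, 0% passed at week 1 (0 of 17578 by edgeR, with 2477 at an unadjusted p under 0.05 and 416 by DESeq2), 0.00577% at week 2, 27.2% at week 3 and 48.4% at week 4. At week 3 Areg and Nrg1 rose and Btc fell, which is 3 of 9 against that 27.2%, with 13.6% of all genes higher and 13.6% lower. At week 4 Epgn, Areg, Hbegf, Tgfa and Nrg1 rose and Btc and Erbb3 fell, which is 7 of 9 against 48.4%, with 24.2% of all genes in each direction. Egfr and Ereg did not pass in any of the 4 weeks. These counts are from fits without pairing by mouse. With the mouse as a replicate block, Epgn and Nrg1 passed at week 2, where 3.7% of all genes did. At an unadjusted p under 0.05 edgeR called 1 of the 9 at week 1 (Epgn) and 3 at week 2 (Egfr, Epgn and Nrg1), where 14.1% and 13.8% of all genes were called, and DESeq2 called 0 and 1 (Epgn) after adjustment. At week 3 scaling by total counts moved the median log2 difference of all genes by 0.236, and split the calls into 4054 higher and 1270 lower in place of 2408 and 2397; Areg, Nrg1 and Btc kept their calls. The CPM of the 9 genes in each sample is plotted by group.

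**Figure D1:**
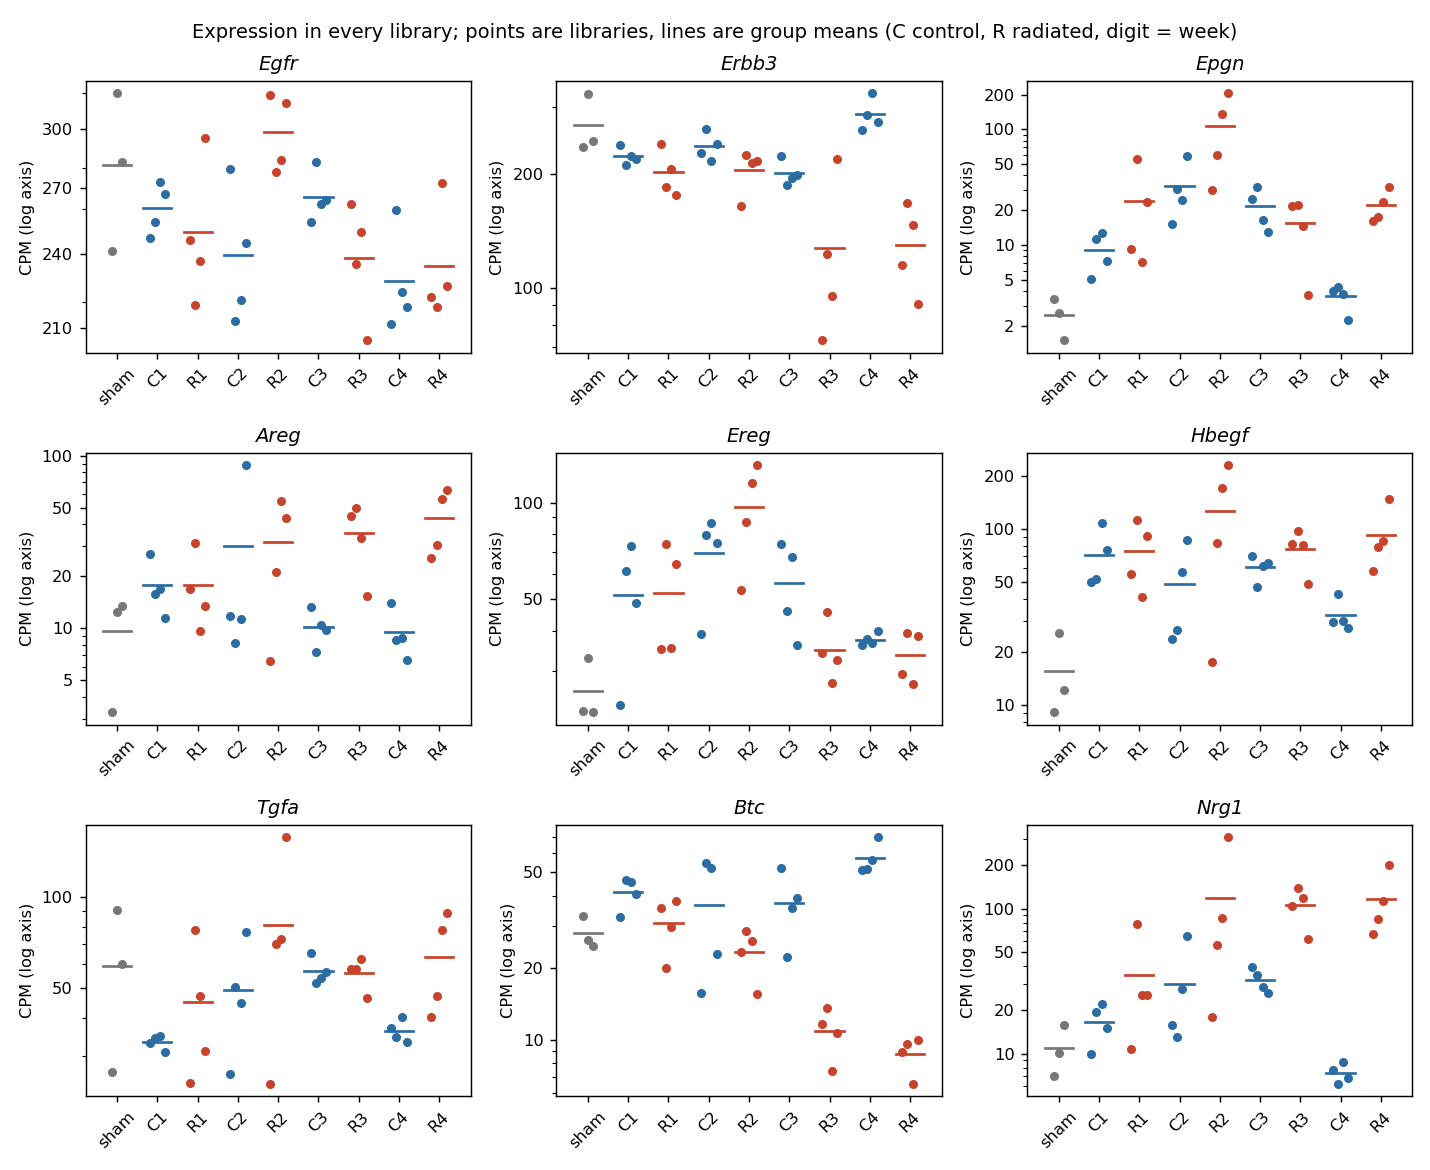
CPM of each of the 9 genes in all 35 samples (log axis; a point is a sample, a line the group mean), for sham skin and for control (C) and radiated (R) skin of weeks 1 to 4. Btc in radiated skin of week 4 lies between 6.54 and 9.99 CPM, below all control samples of that week, and Nrg1 lies between 66.5 and 200 CPM, above all of them.

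Egfr, the main receptor of the family in epidermis (chr11:16752203-16918158, plus strand, GRCm38), varied little. Its mean level ran from 228 CPM in control skin of week 4 to 299 CPM in radiated skin of week 2, and the ranges of all groups that neighbour each other in this order overlapped. At week 4 the radiated samples held 222, 218, 272 and 227 CPM and the control samples 212, 260, 224 and 218 CPM. The groups overlapped, and the log2 difference of 0.05 had a 95% interval from -0.18 to 0.27 (adjusted p = 0.726). The largest difference was at week 2, where the radiated samples held 319, 278, 284 and 314 CPM and the control samples 279, 213, 221 and 245 CPM. Radiated skin was higher in 4 of 4 pairs, with a log2 difference of 0.32 ± 0.14 (SE), and this did not pass the test (adjusted p = 0.345). At weeks 1 and 3 the log2 differences were -0.06 and -0.13, and both changed sign under total-count scaling (0.08 and 0.10).

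Erbb3 (chr10:128567523-128589652, minus strand), which pairs with Egfr and Erbb2 and binds neuregulins, fell in radiated skin of week 4. The radiated samples of that week held 115, 168, 147 and 90.8 CPM, and the control samples 262, 287, 327 and 275 CPM. The groups did not overlap, as for 46% of all genes at that week, and the log2 difference was -1.14 ± 0.17 (adjusted p = 0.000487, lower in 4 of 4 pairs). At week 3 the radiated samples held 72.7, 123, 95.2 and 219 CPM against 224, 187, 195 and 199 CPM in control skin. The first 3 radiated samples lay below all controls and replicate 4 lay among them, and the log2 difference of -0.63 did not pass (adjusted p = 0.133). Without that sample the difference was -1.02 and passed (adjusted p = 0.00436). At weeks 1 and 2 the log2 differences were -0.14 and -0.22, and the groups overlapped.

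The other receptors of the family, Erbb2 and Erbb4, were read from a list of 52 further genes of the pathway. Erbb2, which has no ligand of its own and serves as a partner, averaged 64.7 ± 29 CPM (SD, n = 4) in radiated and 128 ± 9.51 CPM in control skin of week 3, and 62 ± 19 against 142 ± 12.1 CPM at week 4. It fell at both weeks, by 0.96 (adjusted p = 0.0355) and by 1.19 (adjusted p = 0.000629) on the log2 scale, and its groups did not overlap. Erbb4, the other neuregulin receptor, was near the limit of detection, with group means from 0.206 to 1.05 CPM, and did not pass at week 4 (log2 difference -1.30 ± 0.57, adjusted p = 0.0858).

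Epgn, Ereg, Areg and Btc lie within 376 kb of chromosome 5. In GRCm38, Epgn is at chr5:91027464-91035215, Ereg at chr5:91074622-91093646 and Areg at chr5:91139599-91148432, all on the plus strand, and Btc is at chr5:91357261-91402994 on the minus strand. The gaps between them are 39.4, 46 and 209 kb. Of the other annotated genes in between, Gm19610, which is antisense to the start of Ereg, Gm23092 and Gm19619 are not analysed here. Whether the counting used strand is not given in the sources used here, so reads from Ereg and from its antisense partner may not have been told apart.

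RefSeq promoter sequences (GRCm38.p6) matched 5 of the 9 genes by symbol: Epgn, Areg, Btc, Tgfa and Egfr. The stretch just before the transcript start is shown for the 3 chromosome 5 ligands that changed in radiated skin of week 4, to set the risers Epgn and Areg beside Btc, which fell. Each is written 5′ to 3′ on the strand of its gene, with motif matches in capitals: TGACGTCA is the cyclic AMP response element (CRE) and TATAAA the TATA box. The positions are chr5:91027267-91027463 (plus strand) for Epgn, chr5:91139349-91139598 (plus strand) for Areg and chr5:91402995-91403244 (minus strand) for Btc.
Epgn: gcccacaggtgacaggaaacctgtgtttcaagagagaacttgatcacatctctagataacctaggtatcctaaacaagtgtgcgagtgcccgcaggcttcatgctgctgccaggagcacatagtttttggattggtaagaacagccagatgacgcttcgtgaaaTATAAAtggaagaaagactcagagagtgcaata
Areg: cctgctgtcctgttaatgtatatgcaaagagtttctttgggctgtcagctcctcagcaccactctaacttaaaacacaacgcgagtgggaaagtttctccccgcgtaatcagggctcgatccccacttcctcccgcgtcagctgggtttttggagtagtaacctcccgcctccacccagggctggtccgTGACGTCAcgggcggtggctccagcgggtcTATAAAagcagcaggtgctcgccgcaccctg
Btc: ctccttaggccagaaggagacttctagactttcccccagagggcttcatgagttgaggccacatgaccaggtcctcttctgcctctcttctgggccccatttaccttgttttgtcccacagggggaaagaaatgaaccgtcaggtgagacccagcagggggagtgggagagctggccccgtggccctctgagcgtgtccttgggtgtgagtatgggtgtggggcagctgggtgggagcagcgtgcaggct
Areg had a CRE that begins 61 bases before its start, a motif held by 1.55% of 32851 promoter windows of 250 bases, and a TATA box 31 bases before its start. Epgn had a TATA box 86 bases before its RefSeq start, which is 33 bases before the GENCODE start, and 12.4% of the windows held that motif. Btc, Tgfa and Egfr had neither. The AP-1 motif TGANTCA (6.75% of windows) and the TEAD motif GGAATG (12.6%) were not found in the 5 windows, with both strands searched, and no match overlapped another. A match is a description of these letters, not of binding.

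Epgn, a low-affinity ligand of Egfr, rose at week 4. The radiated samples of week 4 held 16, 17.7, 23.6 and 31.7 CPM, and the control samples 4.02, 4.38, 3.76 and 2.27 CPM. All radiated samples lay above all controls, with a log2 difference of 2.64 ± 0.27 (6.21-fold, adjusted p = 4.39e-05). At week 2, the group with the highest mean, the radiated samples held 30.2, 60.4, 136 and 205 CPM and the control samples 15.2, 30.5, 24.4 and 58.8 CPM. Replicates 2, 3 and 4 stood above all controls, replicate 2 narrowly, while replicate 1 lay among them, and the log2 difference of 1.75 ± 0.58 did not pass (adjusted p = 0.228). Radiated skin was higher in 4 of 4 pairs, and with the mouse as a replicate block the call passed (1.56, adjusted p = 0.0268, where 3.7% of all genes passed). At week 3 the order turned: 21.6, 22.3, 14.6 and 3.73 CPM in radiated against 25.2, 31.7, 16.6 and 13 CPM in control skin, with overlap and a log2 difference of -0.45 (adjusted p = 0.527). At week 1 radiated replicates 2 and 4, at 56 and 23.6 CPM, stood above the controls (5.07 to 12.6 CPM), and the log2 difference of 1.42 did not pass (adjusted p = 0.315).

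Areg, a ligand made by keratinocytes and also by immune cells, rose at weeks 3 and 4. At week 3 the radiated samples held 44.7, 49.8, 33.5 and 15.4 CPM and the control samples 13.3, 7.33, 10.5 and 9.76 CPM. At week 4 they held 25.7, 30.2, 56.5 and 63 CPM against 14, 8.54, 8.84 and 6.54 CPM. In both weeks all 4 radiated samples exceeded all 4 controls, as for 31.7% of all genes at week 3. The log2 differences were 1.84 ± 0.35 (3.59-fold, adjusted p = 0.00541) and 2.22 ± 0.33 (4.66-fold, adjusted p = 0.000455). Before that, no difference passed: at week 1 both group means were 17.8 CPM. At week 2 control replicate 4, at 88.2 CPM, exceeded all other samples of that week, and the log2 difference was 0.09 with it and 1.59 without it (adjusted p = 0.369 without it).

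Ereg, which lies between Epgn and Areg, did not pass in any week. At week 4 the radiated samples held 29.4, 39.2, 27.3 and 38.5 CPM and the control samples 36.1, 37.5, 36.5 and 39.9 CPM. The groups overlapped, and the log2 difference was -0.15 with a 95% interval from -0.44 to 0.14. At week 3 the means were 34.9 ± 7.7 and 56.1 ± 18 CPM, lower in radiated skin in 4 of 4 pairs, with a log2 difference of -0.66 (adjusted p = 0.0775). Without control replicate 4 of that week the difference was -0.82 and passed (adjusted p = 0.0387). Ereg was highest at week 2 in both kinds of skin, at 96.7 ± 33.9 CPM in radiated and 70 ± 21.3 CPM in control samples (adjusted p = 0.541).

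Btc, a ligand of Egfr and ErbB4, fell at weeks 3 and 4. The radiated samples held 11.7, 13.6, 7.43 and 10.7 CPM at week 3, where the control samples held 52, 22.2, 35.5 and 39.1 CPM. At week 4 they held 8.88, 9.62, 6.54 and 9.99 CPM against 51, 51.9, 56.2 and 70.3 CPM. All radiated samples lay below all controls in both weeks. The log2 differences were -1.75 ± 0.28 (3.36-fold lower, adjusted p = 0.00277) and -2.71 ± 0.17 (6.52-fold lower, adjusted p = 3.4e-06). At weeks 1 and 2 the differences of -0.42 and -0.66 did not pass (adjusted p = 0.385 and 0.489), with radiated skin lower in 3 of 4 pairs each. Of the 4 ligand genes on this stretch of chromosome 5, Epgn and Areg thus rose, Btc fell and Ereg did not pass in radiated skin of week 4, as the map of the region shows.

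**Figure D2:**
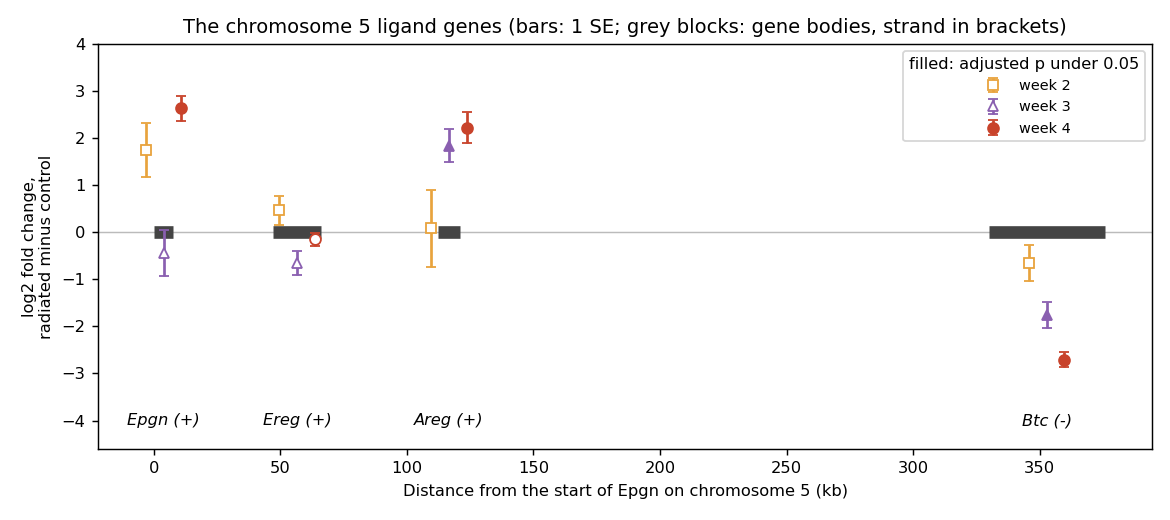
Log2 difference of radiated minus control skin at weeks 2, 3 and 4 (bars are 1 SE, filled symbols passed at an adjusted p under 0.05) at the place of each gene, in kb from the start of Epgn; blocks on the zero line are the gene bodies. At week 4 Epgn and Areg are at 2.64 and 2.22, Ereg at -0.15 and Btc at -2.71.

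Hbegf and Tgfa lie outside this cluster, on chromosomes 18 and 6. Hbegf, a ligand bound to heparan sulfate that keratinocytes make at wound edges, rose at week 4. Its radiated samples held 57.4, 79.5, 84.9 and 148 CPM and its control samples 29.5, 42.9, 30.1 and 27.3 CPM. The groups did not overlap, and the log2 difference was 1.52 ± 0.27 (2.86-fold, adjusted p = 0.00126). At week 2 the radiated samples spread from 17.4 to 231 CPM (17.4, 83.5, 172 and 231) against 23.7, 26.6, 56.9 and 86.7 CPM in control skin. Replicates 3 and 4 were above all controls and replicate 1 below them, and the log2 difference of 1.38 ± 0.67 did not pass (adjusted p = 0.4). At week 3 the difference of 0.38 did not pass (adjusted p = 0.218), and without radiated replicate 4 it was 0.55 and did (adjusted p = 0.0327). From week 3 to week 4 the control mean went from 60.7 ± 9.9 to 32.4 ± 7.07 CPM, and the radiated mean from 77.3 ± 20.3 to 92.4 ± 38.8 CPM.

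Tgfa (chr6:86195223-86275719, plus strand), the ligand known from keratinocytes and from the hair follicle, showed the smallest rise. At week 4 the radiated samples held 40.2, 47.4, 77.9 and 88.6 CPM and the control samples 36.9, 34.5, 40.2 and 33.4 CPM. The lowest radiated and the highest control sample lay at the same level, and the log2 difference was 0.82 ± 0.23 (1.76-fold, adjusted p = 0.0155, higher in 4 of 4 pairs). In 1 fit of all 35 samples the rise did not pass (0.81, adjusted p = 0.108). At week 3 the radiated and control means were 56.4 ± 6.88 and 57 ± 5.9 CPM, with a log2 difference of 0.01 and a 95% interval from -0.30 to 0.33. At week 4 they were 63.5 ± 23.4 and 36.3 ± 3 CPM, so the control mean was lower than at week 3. The sample with the highest level of all was radiated replicate 4 of week 2, at 158 CPM, and the difference of that week did not pass (0.71, adjusted p = 0.553).

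Nrg1 (chr8:31814551-32884029, minus strand), the ErbB3 ligand of the set, had the largest difference of the 9 genes at week 4. Its radiated samples of that week held 66.5, 85.2, 113 and 200 CPM and its control samples 7.67, 6.19, 8.84 and 6.80 CPM. The groups were far apart, with a log2 difference of 3.98 ± 0.34 (15.8-fold, adjusted p = 1.51e-05). It rose at week 3 as well, from 39.8, 35, 28.6 and 26.4 CPM in control to 104, 138, 119 and 61.4 CPM in radiated skin (1.73 ± 0.25, adjusted p = 0.00213). Again no sample of 1 group reached the other. The wider difference at week 4 went with lower controls, 7.38 ± 1.15 CPM against 32.5 ± 6.12 CPM at week 3, while the radiated means were 116 ± 58.9 and 105 ± 32.5 CPM. At week 2 the radiated samples held 18.1, 56, 85.5 and 311 CPM and the controls 15.8, 13, 27.8 and 64.7 CPM. The groups overlapped, and the log2 difference of 1.97 ± 0.80 did not pass (adjusted p = 0.313) without the mouse as a block and passed with it (1.57, adjusted p = 0.0488, higher in 4 of 4 pairs). At week 1 the difference was 1.08 (adjusted p = 0.361), with radiated replicate 2 at 77.8 CPM and the other radiated samples at 10.8 to 25.6 CPM.

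Whether the radiated-minus-control difference itself changed over the 4 weeks was tested in 1 fit of the 32 radiated and control samples, in which 15.6% of 19338 genes passed. Btc passed, with differences of -0.42, -0.66, -1.75 and -2.71 at weeks 1 to 4 (adjusted p = 0.00115). Epgn passed narrowly, with differences of 1.42, 1.75, -0.45 and 2.64 (adjusted p = 0.0493). The call of Epgn was lost in 26 of 36 alternatives, most of which left out 1 sample, with an adjusted p of up to 0.1, reached without control replicate 2 of week 3. With the mouse as a block, where 15.8% of all genes passed, its adjusted p was 0.0096. Erbb3 and Nrg1 did not pass (adjusted p = 0.0546 and 0.0703), and with the block they did (0.0425 and 0.0028). Erbb3 also passed without radiated replicate 4 of week 3 (0.00154), replicate 1 of week 3 (0.0263), replicate 2 of week 4 (0.0312) or replicate 1 of week 2 (0.0395), and Nrg1 without radiated replicate 4 (0.0103) or 1 (0.033) of week 2 or replicate 2 of week 1 (0.0193). For the other 5 genes the adjusted p lay between 0.102 for Areg and 0.602 for Tgfa. Between neighbouring weeks, edgeR called 0 of the 9 genes in any step, where 0%, 6.9% and 0.419% of all genes passed; at an unadjusted p under 0.05 it called 1, 5 and 3 of them, and 6.7%, 22.7% and 13.9% of all genes. With the block, the difference of Epgn fell by 2.18 on the log2 scale from week 2 to week 3 (adjusted p = 0.0359, where 7.63% of all genes passed). It rose by 3.25 from week 3 to week 4 (adjusted p = 0.0258, where 0.905% passed), and that of Nrg1 rose by 2.21 in that step (adjusted p = 0.0452). The mean of Epgn went from 21.6 to 3.61 CPM in control skin in that step, and from 15.6 to 22.2 CPM in radiated skin.

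**Figure D3:**
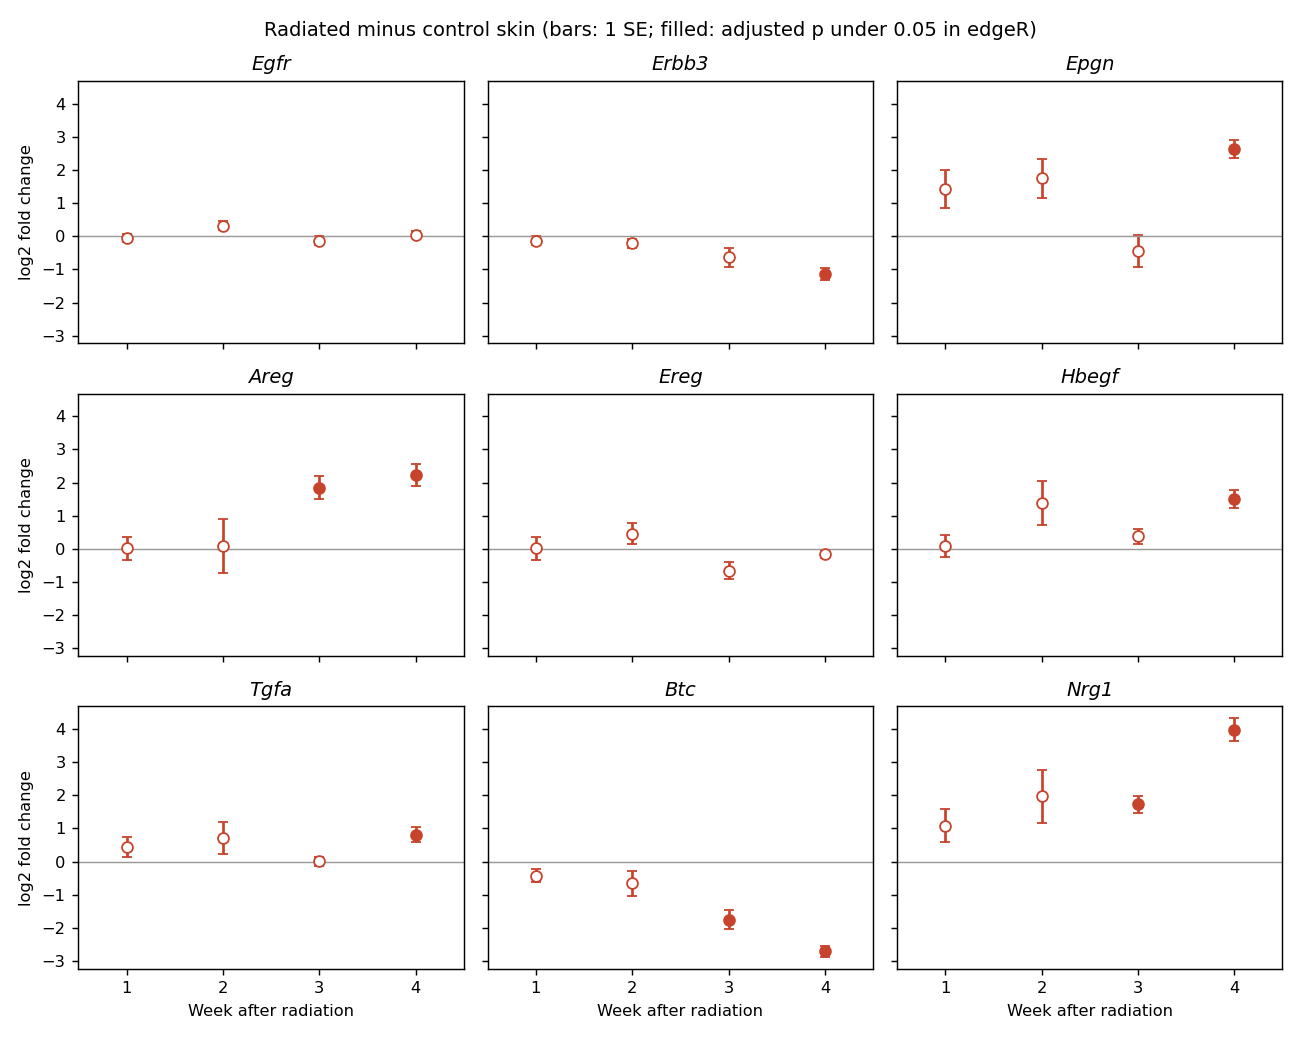
Log2 difference of radiated minus control skin by week for each of the 9 genes (points, with bars of 1 SE; filled points passed at an adjusted p under 0.05). Filled points are absent at weeks 1 and 2; Btc falls to -2.71 and Nrg1 reaches 3.98 at week 4, while Egfr stays between -0.13 and 0.32 (its signs at weeks 1 and 3 turn under total-count scaling).

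Compared with sham skin, which came from mice without radiation, radiated skin held more of several ligands. These 8 comparisons share the same 3 sham samples, so they are not independent of each other. Sham skin has no collection week in the labels, so time and treatment cannot be told apart in comparisons with it. At week 1 Hbegf passed (2.26, adjusted p = 0.038), where 1.75% of all genes did. At week 2 Epgn and Ereg passed, where 5.06% of all genes did. Epgn was at 3.40, 2.60 and 1.5 CPM in sham skin and at 30.2 to 205 CPM in radiated skin of week 2, a log2 difference of 5.42 ± 0.72 (42.9-fold, adjusted p = 0.00826). That was the largest of the 12 comparisons of 2 groups for any of the 9 genes. Ereg was at 22.4, 32.9 and 22.3 CPM in sham skin and at 53.5, 87.4, 115 and 131 CPM at week 2, with no overlap, as for 20.9% of all genes (1.90 ± 0.32, adjusted p = 0.016).

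At week 3 Epgn (2.67), Areg (1.94), Hbegf (2.35) and Nrg1 (3.31) were higher and Btc (-1.32) was lower than in sham skin, 5 of 9 where 18.2% of all genes passed. At week 4 the same 5 genes and Erbb3 passed, 6 of 9 where 26.7% of all genes did. The log2 differences of week 4 were 3.19 for Epgn, 2.23 for Areg, 2.61 for Hbegf, 3.45 for Nrg1, -1.63 for Btc and -1.0 for Erbb3, with adjusted p from 0.00065 to 0.0145. Tgfa did not pass against sham skin at any week, and sham samples of this gene ranged from 26.5 to 91 CPM. Several of the earlier calls rest on single libraries. Leaving out sham replicate 3 ended those of Hbegf at week 1 (adjusted p = 0.195), Epgn and Ereg at week 2 (0.0572 and 0.104) and Epgn and Areg at week 3 (0.0718 and 0.0765). The call of Hbegf at week 1 was also lost without sham replicate 1 (0.0558) or radiated replicate 3 or 4 of week 1 (0.0835 and 0.103), and that of Ereg without radiated replicate 3 of week 2 (0.0555). Epgn at week 3 was lost without sham replicate 2 (0.0739), and Areg at week 3 without sham replicate 1 or 2 or radiated replicate 1, 2 or 3 (0.0737 to 0.0934). The calls of Hbegf, Btc and Nrg1 at week 3 and all 6 of week 4 were kept in each such fit.

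Several ligands also differed between control and sham skin, as did skeletal muscle markers (14500 to 43300 CPM in control skin of weeks 1 to 3 and 5890 to 12700 CPM in sham skin), whose part was not tested. Epgn in control skin held 5.07 to 12.6 CPM at week 1, 15.2 to 58.8 CPM at week 2, 13 to 31.7 CPM at week 3 and 2.27 to 4.38 CPM at week 4, against 1.5 to 3.40 CPM in sham skin. It was higher than sham at weeks 1, 2 and 3, by 1.84, 3.66 and 3.09 on the log2 scale (adjusted p = 0.0416, 0.0293 and 0.00599), and did not pass at week 4 (0.51, adjusted p = 0.412). Of the other genes, Hbegf passed at week 1 (2.19) and week 3 (1.95), Ereg at week 2 (1.42) and week 3 (1.10), Nrg1 at week 3 (1.55) and Btc at week 4 (1.03). Thus 2, 2, 4 and 1 of the 9 genes differed between control and sham skin at weeks 1 to 4, where 4.92%, 2.44%, 11.4% and 3.65% of all genes did. The rise of Btc in control skin of week 4, from 27.9 ± 4.46 CPM in sham (n = 3) to 57.4 ± 8.92 CPM, is part of the radiated-minus-control difference of that week, and against sham skin radiated Btc was 3.09-fold lower. Except for Epgn at week 3, each of these 9 calls was lost when 1 sample was left out. Sham replicate 3 was such a sample for all of them but Nrg1, which was lost without sham replicate 2 (adjusted p = 0.0559), and Hbegf at week 3 was lost without sham replicate 3 alone (0.0531). The calls of week 1 were lost without sham replicate 2 or control replicate 2, 3 or 4 as well (0.0519 to 0.115). At week 2 the same held for Epgn and Ereg, and Ereg was also lost without sham replicate 1 (0.0568 to 0.15 over both). Ereg at week 3 was lost without any sham sample or control replicate 1, 2 or 3 (0.053 to 0.115), and Btc at week 4 without sham replicate 2 or control replicate 2, 3 or 4 (0.0542 to 0.0796).

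**Figure D4:**
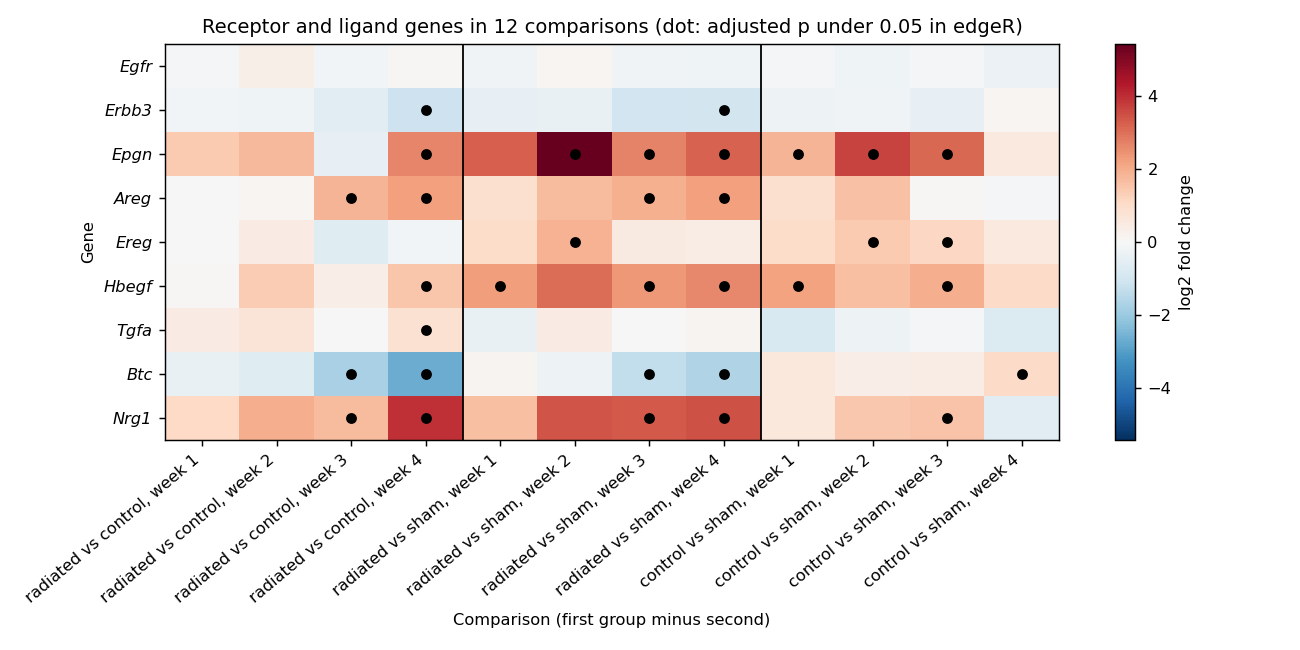
Log2 differences of the 9 genes (rows) in 12 comparisons of 2 groups (columns; first group minus second; red higher, blue lower), with a dot where the adjusted p was under 0.05. The columns of radiated against control skin hold dots at weeks 3 and 4 (3 and 7 genes) and none at weeks 1 and 2, and Epgn has a dot in control against sham skin at weeks 1 to 3.

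Markers of other cell types and states moved with these differences, and their part in the results was not tested. Their counts stand against 27.2% of all genes called at week 3 and 48.4% at week 4. The 5 markers of wound-type keratinocytes, the keratins and envelope genes that epidermis makes after injury, summed to 10300 to 13500 CPM in radiated and 494 to 554 CPM in control skin of week 4. All 5 rose at weeks 3 and 4, as did all 5 neutrophil markers (205 to 435 against 10.2 to 14.4 CPM at week 4). At week 4 all 5 macrophage markers rose (928 to 1390 against 167 to 248 CPM), and so did all 5 fibroblast markers (22800 to 36500 against 1650 to 3630 CPM). The fibroblast sums were higher without overlap at week 3 as well (9250 to 17500 against 1590 to 8850 CPM), and the macrophage sums overlapped there (683 to 1740 against 270 to 737 CPM). Of the 7 markers of basal and suprabasal epidermis, 5 fell and 1 rose at week 4 (10900 to 15700 against 20900 to 23200 CPM). All 6 tested of 8 hair follicle markers rose at week 4, with 1 radiated sample at 5850 CPM and the other 3 at 19.4 to 259 CPM. The control samples of that week summed to 21.6 to 33.3 CPM, so the ranges overlapped.

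Skeletal muscle markers summed to 2490 to 7360 CPM in radiated and 14500 to 29200 CPM in control skin of week 3, where 5 of 6 fell. At week 4 the ranges overlapped (973 to 2230 against 1140 to 17400 CPM) and 4 of 6 fell. At weeks 1 and 2 the muscle sums were also lower in radiated skin without overlap (6770 to 19400 against 22200 to 35000 CPM, and 8460 to 17300 against 24400 to 43300 CPM), and edgeR called 0 of the 6 genes after adjustment, but 5 at an unadjusted p under 0.05 in each week, where 14.1% and 13.8% of all genes were. With 27.2% and 48.4% of all genes called at weeks 3 and 4, Schwann cell markers were lower in radiated skin at both weeks. They summed to 118 to 190 against 227 to 328 CPM at week 3 (2 of 4 fell). At week 4 they summed to 114 to 143 against 202 to 255 CPM (3 of 4 fell). Radiated skin held the least Erbb3 at these weeks, while sham skin had Schwann sums of 94.8 to 207 CPM with a mean Erbb3 of 269 CPM. At week 4 all 4 endothelial markers rose (341 to 458 against 142 to 239 CPM), as did all 4 mast cell markers (70.3 to 104 against 20.3 to 29.8 CPM). Week 3 had endothelial sums of 185 to 434 against 151 to 185 CPM and mast cell sums of 29.9 to 68.2 against 13.1 to 24.2 CPM. Of the 4 melanocyte markers 3 rose at that week, of the 6 sebaceous gland markers 3 fell, and of the 4 T cell markers 2 rose and 1 fell, with 24.2% of all genes called in each direction.

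Among the radiated samples of weeks 1 and 2, the wound-type markers were high in few. They summed to 14400 CPM in replicate 2 of week 1 and 13900 CPM in replicate 4 of week 2, against 359 to 4970 CPM in the other 6. Those 2 samples also held the highest Epgn, Nrg1, Hbegf and Tgfa of their groups. In radiated skin of week 3, replicate 4 held 23600 CPM of the epidermal markers against 5290 to 12700 CPM in the other 3, and it also held the highest Erbb3 and the lowest Epgn, Areg, Hbegf and Nrg1 of its group.

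Markers also differed between sham and control skin, where 4.92%, 2.44%, 11.4% and 3.65% of all genes were called at weeks 1 to 4. Skeletal muscle markers summed to 5890 to 12700 CPM in sham skin, below all control samples of weeks 1, 2 and 3, and 4, 4 and 3 of the 6 genes were higher in control skin at those weeks. Adipocyte markers summed to 115 to 269 CPM in sham and 381 to 856 CPM in control skin of week 1, where 4 of 5 were higher. Endothelial markers summed to 83.3 to 138 CPM in sham skin, below all control samples of weeks 1 to 4 (142 to 239 CPM). Schwann cell markers of sham skin (94.8 to 207 CPM) lay below control skin of weeks 1 and 3 (219 to 302 and 227 to 328 CPM), and overlapped it at weeks 2 and 4. Growing hair follicle markers summed to 2130, 28000 and 33800 CPM in the sham samples. The lowest of these lay within the ranges of control skin of week 1 (18.9 to 6780 CPM) and week 2 (9.13 to 2670 CPM) and of radiated skin of week 4, and above those of the other 5 groups. Of the 8 hair follicle genes 0, 1, 3 and 8 were lower in control than in sham skin at weeks 1 to 4, and Krt73 was at 0 in at least 1 control sample of each week.

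Per length, the levels can be compared between genes only roughly. The merged exon length covers all annotated transcripts of a gene, and those present in skin may be shorter. Dividing CPM by the merged exon length in kb, Erbb3 (44.7 ± 8.2 CPM per kb) and Egfr (24.8 ± 3.48) stood above all ligands in sham skin (n = 3). The ligands of sham skin ranged from 1.06 ± 0.44 CPM per kb for Nrg1 to 9.14 ± 4.97 for Tgfa. In control skin of week 4, Btc was the highest ligand at 12.7 ± 1.97 CPM per kb and Nrg1 the lowest at 0.713 ± 0.111. In radiated skin of week 4, Areg was the highest ligand at 36.1 ± 15.3 CPM per kb and Btc the lowest at 1.94 ± 0.343. The mean of Areg in that group was above those of both receptors, Egfr at 20.7 ± 2.23 and Erbb3 at 21.6 ± 5.65 CPM per kb, with overlap between samples. In radiated skin of week 2 the highest ligand was Epgn, at 59.6 ± 43.4 CPM per kb.

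As a share of the 7 ligands summed per length, Btc made up 28.6% ± 5.18 (SD, n = 4) in control and 2.17% ± 0.867 in radiated skin of week 4. Areg took 36% ± 5 in radiated and 17.4% ± 5.32 in control samples, and Nrg1 11% ± 1.58 and 1.6% ± 0.256. The share of Epgn was 12.7% ± 0.872 in radiated and 4.46% ± 1.08 in control samples. The shares of Ereg (8.97% ± 3.13 and 20.4% ± 1.42) and Tgfa (9.91% and 12.5%) were lower in radiated samples, although the CPM of Tgfa was higher. The ranges of these 6 shares did not overlap between the groups, and those of Hbegf did. In control skin of weeks 1 to 3 the mean share of Btc was between 11% and 14.7%. In sham skin it was 19.4% ± 9.69, with a range (12.6% to 30.5%) that overlapped that of control skin of week 4 (24.4% to 35.9%). The share of Epgn was 34.8% ± 4.04 in radiated and 20.5% ± 2.76 in control skin of week 2, again without overlap (29.9% to 39.6% and 17.6% to 24.2%), although its CPM overlapped. Tgfa had its highest share in sham skin, at 24.5% ± 6.91, and stood between 7.78% and 13.3% in the other groups. These shares were not tested.

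**Figure D5:**
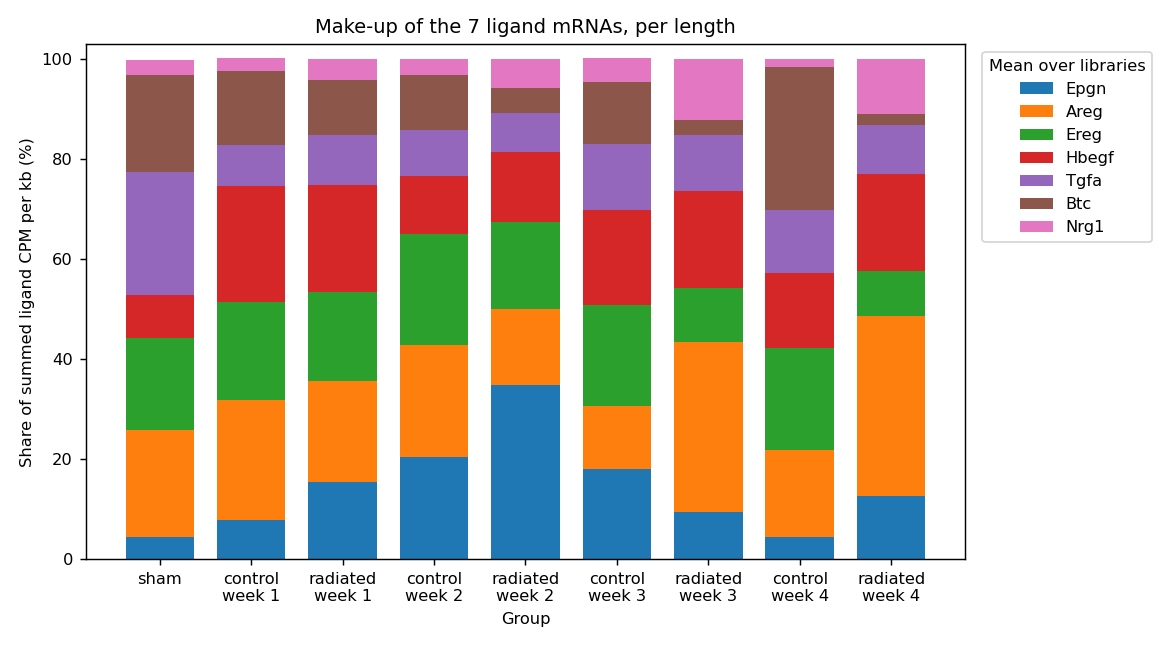
Mean share of each of the 7 ligands in their summed CPM per kb (%), by group; shares are means over the samples of a group (3 sham, 4 in each other group). Btc shrinks from 28.6% in control to 2.17% in radiated skin of week 4, and Areg and Nrg1 are 36% and 11% there.

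In the order of group means, Epgn ran from radiated week 2 (108 CPM), control week 2 (32.2), radiated week 1 (24), radiated week 4 (22.2), control week 3 (21.6), radiated week 3 (15.6) and control week 1 (9.04) down to control week 4 (3.61) and sham (2.50). Only the ranges of control week 1 and control week 4 did not overlap among these neighbours. Nrg1 ran from radiated week 2 (118), radiated week 4 (116) and radiated week 3 (105) through radiated week 1 (34.8), control week 3 (32.5), control week 2 (30.3) and control week 1 (16.6) to sham (11) and control week 4 (7.38), and all neighbours overlapped. Btc had its 2 lowest means in radiated skin of weeks 4 (8.76) and 3 (10.8), next to radiated week 2 (23.3), sham (27.9) and radiated week 1 (30.8). The control groups, at 36.4 to 57.4 CPM, were the 4 highest. Neighbours of Btc did not overlap between radiated weeks 2 and 3 and between control weeks 4 and 1. Areg was highest in radiated skin of weeks 4 (43.8), 3 (35.9) and 2 (31.6) and lowest in control skin of week 4 (9.48) and sham skin (9.70), and each pair of neighbours overlapped. Erbb3 had its gap between control week 3 (201) and radiated week 4 (130), and Hbegf between control week 4 (32.4) and sham skin (15.5).

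Across the 35 samples, which share the same groups and so are not independent, the 9 genes fell into sets by the correlation of their log2 CPM. Nrg1 had Pearson's r of 0.786 with Areg, 0.756 with Hbegf, 0.714 with Epgn and 0.706 with Tgfa, and -0.752 with Btc and -0.699 with Erbb3. Btc and Erbb3 had an r of 0.72 with each other. Ereg went with Epgn (0.75) and had an r of 0.306 with Nrg1, while Egfr had no r above 0.239 with another of the 9. Among 12524 genes with a mean level of 5 CPM or more, the 3 genes most like Btc were Utrn (0.949), Abca5 (0.949) and Ptpn21 (0.942). Those most like Nrg1 were Clcf1 (0.963), Ppp4r1 (0.929) and Cd44 (0.926), and those most like Erbb3 were Gata3 (0.936), Acpp (0.933) and Exph5 (0.93). Among the genes most like Epgn were Ifi202b (0.855) and Tor1aip2 (0.85), and Ereg was most like Mindy3 (0.908), Slc19a2 (0.882) and Lrrfip2 (0.872). Areg was most like Pxdc1 (0.804), Il6 (0.787) and Rnf24 (0.785), and Hbegf most like Tnfaip6 (0.847), Pxdc1 (0.842) and Vps37b (0.826). For Tgfa they were Eaf1 (0.825), Cdcp1 (0.797) and Stam2 (0.791), and for Egfr Taf11 (0.635), Trio (0.624) and Prkca (0.619).

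The rest of the pathway was read from the list of 52 genes, which names receptors, ligands, proteases, inhibitors, relay proteins and target genes by their roles. Between radiated and control skin edgeR called 0 of 52 at week 1 and 0 of 51 at week 2, with 6 and 5 at an unadjusted p under 0.05, where 14.1% and 13.8% of all genes were. At week 3, 15 of 50 tested passed, 5 higher and 10 lower, with a median log2 difference of 0.05 against 0.0804 over all genes, of which 27.2% passed. At week 4, 35 of 51 passed, 19 higher and 16 lower, with a median of -0.124 against 0.0175 over all genes, of which 48.4% passed, 24.2% in each direction. Beside the receptors given above, Egf, the ligand that names the family, fell at week 3 (26.2 ± 7.3 CPM in control and 9.91 ± 1.43 CPM in radiated skin, log2 difference -1.38, adjusted p = 0.00301) and did not pass at week 4 (-0.73, adjusted p = 0.0577). Nrg2 and Nrg4 did not pass at weeks 3 and 4, and Nrg3, with group means of at most 0.534 CPM, was too low to be tested at weeks 2 to 4 and did not pass at week 1 (0.56, adjusted p = 0.779).

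Of the 5 genes for the proteases that release ligands and their partners, 1 rose and 1 fell at each of weeks 3 and 4, where 27.2% and 48.4% of all genes passed. Adam17, the main sheddase of Areg, Epgn, Hbegf and Tgfa, was at 126 ± 12.8 CPM in radiated and 127 ± 6.11 CPM in control skin of week 4. Its log2 difference was -0.002 there (adjusted p = 0.984) and 0.10 at week 3 (adjusted p = 0.546). Adam10, a sheddase of Btc, was at 0.22 at week 4 (adjusted p = 0.0672). Of the proteins that hold Adam17 in its active complex, Frmd8 rose at weeks 3 (1.08) and 4 (0.72) and Rhbdf1 fell at weeks 3 (-0.56) and 4 (-0.41), and Rhbdf2 did not pass. The call of Rhbdf1 at week 4 was lost with the mouse as a block (adjusted p = 0.0584).

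Among the 10 genes listed as receptor inhibitors and turnover genes, 3 rose and 4 fell at week 4, where 24.2% of all genes rose and 24.2% fell. Lrig3 and Lrig1, membrane proteins of the Lrig family, fell by 1.29 and 0.95 on the log2 scale (adjusted p = 0.00157 and 0.00252). Ptpn1, a tyrosine phosphatase, rose by 0.80 (adjusted p = 2.22e-05). Errfi1, an inhibitor of the Egfr kinase that the receptor induces, averaged 164 ± 34.5 CPM in radiated and 224 ± 39.7 CPM in control skin and did not pass (adjusted p = 0.0569), but did with the mouse as a block (0.0265). At week 3, 1 of the 10 passed, Socs4, which fell by 0.68, where 27.2% of all genes passed. Of the 8 feedback genes on Ras and ERK, 4 rose and 3 fell at week 4, against the same shares of all genes. Dusp5, an ERK phosphatase, rose at weeks 3 (0.92) and 4 (0.92), and Spry4 rose by 0.77 and Spry1 fell by 0.80 at week 4. The call of Dusp5 at week 3 was lost with the block (adjusted p = 0.0851). At week 2 Dusp5 passed only with the block (1.04, adjusted p = 0.0461), where 3.7% of all genes did.

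Of the 14 adaptor and relay genes, 5 rose and 4 fell at week 4, where 48.4% of all genes passed, and 1 rose and 4 fell at week 3, where 27.2% did. Map2k1, the kinase that activates ERK, rose at both weeks (0.77 and 0.88) and Hras fell at both (-0.80 and -0.87). The call of Map2k1 at week 3 was lost with the block (adjusted p = 0.0563). Stat3 rose at week 4, from 144 ± 10.3 CPM in control to 285 ± 9.42 CPM in radiated skin (1.00, adjusted p = 8.82e-06).

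All 9 target genes of ERK on the list passed at week 4, where 48.4% of all genes did, and they went in opposite directions. Fos and Egr1, transcription factors that are induced within minutes, were high in control skin of that week, at 1400 ± 650 and 1100 ± 340 CPM, and lower in radiated skin, at 125 ± 29.2 and 143 ± 17.9 CPM. They fell by 3.49 and 2.94 on the log2 scale (adjusted p = 7.13e-05 and 8.66e-06). Fosl1, another AP-1 subunit, rose from 2.54 ± 1.29 to 32 ± 12.3 CPM (3.68, adjusted p = 7.13e-05), and Phlda1 (2.03), Ier3 (1.48), Etv4 (1.47), Etv5 (0.43) and Ccnd1 (0.29) rose too, while Myc fell by 0.58. The call of Ccnd1 was lost with the block (adjusted p = 0.0581). Control skin of week 4 had the highest Fos and Egr1 means of the 9 groups, against 107 to 515 and 208 to 656 CPM in the other control groups. At week 3, Etv4 (1.54) and Ier3 (1.09) rose, Fosl1 (-1.26) and Myc (-1.38) fell, and Fos and Egr1 did not pass (0.35 and -0.25); the call of Ier3 was lost with the block (adjusted p = 0.0965). Fosl1 in control skin ran from 71.7, 57.2 and 130 CPM at weeks 1 to 3 to 2.54 CPM at week 4, and sham skin held 1.80 CPM.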

How the data were processed

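Skin RNA of 35 samples was sequenced. Per the labels' protocols, RNeasy columns gave the total RNA, and Kallisto and DESeq2 were used; the submitters' processing notes name Trim Galore 0.6.7, kallisto 0.46.2 and mm10. The deposited table holds kallisto's estimated counts summed by gene, not scaled between samples. In each sample 29.5% to 32.5% of them were not whole, and all were rounded here. The transcriptome release, strandedness and step from transcripts to genes are not given in the sources used here. No 2 samples held identical values.

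Each pair of groups was fitted alone with edgeR 4.0.16 (R 4.3.3, limma 3.58.1) after its filter on low counts and TMM scaling, with Benjamini-Hochberg adjustment over all genes tested and a threshold of 0.05; the change of a difference over weeks used 32 samples. CPM came from 19813 genes, and log2 CPM used a prior count of 2. The SE is the log2 difference divided by the root of F. Intervals are 95%. The script was tested on simulated data. Of log2 differences of 1 and 2, it recovered 68% and 97% in radiated against control skin of week 4. It recovered 23% and 87% against sham skin of week 4, and 27% and 70% for a change over weeks that was set in week 4 only. False calls made up 7.82%, 5.17% and 2.02% of the calls, in that order.

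Replicate numbers pair radiated and control samples of a week, because 19 mice gave 35 samples. Same-numbered samples deviated together weakly, with mean correlations of 0.071, 0.17, 0.053 and -0.02 at weeks 1 to 4. Numbers shared with sham pair different mice. The 3 or 4 samples of a group then come from different mice, and that number limits the precision.

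The 9 genes, the lists and the rules for naming genes were chosen with earlier results of these data known. Named from the pathway list were the 3 genes of each role with the largest difference among those that passed with a mean of at least 1 CPM, at weeks 3 and 4; other genes of the list given here (among them Erbb4, Adam17, Adam10, Errfi1, Nrg2, Nrg3, Nrg4, Rhbdf2, and the remaining ERK targets) were added after their values were seen, to complete a role. The 3 genes most like each member had the highest Pearson's r over 35 samples. Some genes that these rules name are not reported here. Alternatives were total-count scaling, no filter, a replicate block, 1 fit of all samples, DESeq2 1.42.0 and leaving out each sample. Gene positions and exon lengths are from GENCODE annotation of GRCm38.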

Additional observations from a re-analysis of the deposited data

Results flagged for a closer look

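Areg in control skin of week 2 stood apart in 1 sample: replicate 4 held 88.2 CPM and the other 3 samples 8.26 to 11.9 CPM. The gap to the nearest of the others was 0.848 of the range of the group, on the log2 scale, above Dixon's 95% limit for 4 samples. Of 72 groups of 4 samples looked at, 1 stood out in this way, and chance gives about 1 in 20. The wound-type keratinocyte markers of that sample summed to 990 CPM, against 519 to 764 CPM in the other 3.

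The radiated-minus-control difference changed over the weeks for Btc (adjusted p = 0.00115) and for Epgn (adjusted p = 0.0493) by the interaction test of edgeR. The difference of Btc went from -0.42 at week 1 to -2.71 at week 4. That of Epgn was 1.42, 1.75, -0.45 and 2.64 at weeks 1 to 4. The call of Epgn was lost in 26 of 36 alternatives, with an adjusted p of up to 0.1 in edgeR, and that of Btc was kept in all 36.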

How the results depend on the processing

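The calls of radiated against control skin at week 4 were kept under total-count scaling, no filter, the replicate block, DESeq2 and with each sample left out, and 1 of them, Tgfa, was lost in 1 fit of all 35 samples. The counts below are those that moved by over 1.5 times, and the cause was not tested. With DESeq2, 416 and 734 genes passed in radiated against control skin at weeks 1 and 2 (0 and 1 with edgeR), 1235 and 2482 in radiated against sham skin at weeks 1 and 2 (319 and 912), and 2974, 1919, 3569 and 1843 in control against sham skin at weeks 1 to 4 (881, 435, 2036 and 655). In the steps from week 1 to 2 and from 3 to 4 it called 9 and 409 genes (0 and 81). Of the 9 genes it called 1 in radiated against control skin at week 2 (0 with edgeR), 4 and 5 against sham at weeks 1 and 2 (1 and 2), 4, 4 and 3 in control against sham skin at weeks 1, 2 and 4 (2, 2 and 1), and 4 by its likelihood ratio test of the change over weeks (2).

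Without the filter 2 genes passed in radiated against control skin at week 2, 561 in radiated against sham at week 1, 734 in control against sham at week 2 and 50 in the last step; of the 9 genes, 2 and 4 passed in radiated against sham at weeks 1 and 2 and 1 changed over weeks. Total-count scaling also left 1 for the change over weeks. In 1 fit of all 35 samples 23 and 544 genes passed in radiated against control skin at weeks 1 and 2, 1224, 3257 and 6402 in radiated against sham at weeks 1 to 3 (3308 at week 3 otherwise) and 1559 in control against sham at week 2; of the 9 genes, 2 and 4 passed in radiated against sham at weeks 1 and 2, and 1 and 0 in control against sham at weeks 1 and 4.

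With the replicate block 641 genes passed in radiated against control skin at week 2 and 175 in the last step; of the 9 genes 2 passed at week 2 and 4 changed over weeks, and the block changed no other call of the 9 between radiated and control skin but those over weeks and in the steps given above. Against sham skin the shared numbers stand for different mice. There the block gave 126, 497 and 3160 genes in radiated skin of weeks 1, 2 and 4 (4899 at week 4 without it), and 0, 1, 477 and 97 in control skin of weeks 1 to 4, with 0, 0, 1 and 0 of the 9 genes there.

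With each sample left out in turn, the genes that passed in radiated against control skin ranged from 0 to 232 at week 1 and from 0 to 206 at week 2. Against sham, radiated skin gave 1 to 543, 107 to 1398 and 1134 to 3965 at weeks 1 to 3, and control skin 0 to 1803, 0 to 2199, 629 to 2438 and 0 to 1705 at weeks 1 to 4. The steps from week 2 to 3 and 3 to 4 gave 652 to 1836 (1335 with all samples) and 3 to 156. Of the 9 genes, 3 to 5 passed in radiated against control skin at week 3, 0 to 2, 0 to 4 and 3 to 6 against sham at weeks 1 to 3, 0 to 4, 0 to 3, 2 to 4 and 0 to 2 in control against sham skin at weeks 1 to 4, and 1 to 4 in the change over weeks.

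Differences that turned in sign were near 0 and did not pass. Egfr was at 0.078 and 0.103 at weeks 1 and 3 under total-count scaling, Areg at -0.057 at week 1 with the replicate block, and Tgfa at -0.002 and -0.015 at week 3 by DESeq2 and in 1 fit of all samples. Leaving out single samples gave -0.404 to 0.292 for Areg, -0.215 to 0.24 for Ereg and -0.186 to 0.349 for Hbegf at week 1, -0.333 to 1.591 for Areg at week 2, -0.044 to 0.098 for Tgfa at week 3 and -0.019 to 0.134 for Egfr at week 4. Total-count scaling moved the split of higher and lower calls in control against sham skin from 586 and 295 to 361 and 469 at week 1, from 245 and 190 to 198 and 322 at week 2 and from 927 and 1109 to 571 and 1951 at week 3. In radiated against sham skin of week 2 it moved from 389 and 523 to 277 and 688, in the step from week 2 to 3 from 543 and 792 to 822 and 442, and in that from week 3 to 4 from 51 and 30 to 9 and 52. With DESeq2, 629 of 1235 and 1370 of 2482 calls in radiated against sham skin of weeks 1 and 2 were higher. Genes near 1 CPM, such as Erbb4, rest on few counts, and how far depth limits them was not tested.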
